A study of Homo sapiens with 15 samples.

Results

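Ribosome biogenesis and RNA polymerase I were followed through 44 genes, chosen by symbol from a list of known factors, in RNA-seq of HSSYII cells, a human synovial sarcoma line that carries the SS18-SSX1 fusion. They were 44 of the 25681 gene symbols in the count tables. For each gene the transcript row with the largest summed count was used, and the symbols were listed by gene function, with earlier results of these data known. For NOP56 alone that row is a non-coding transcript record of the gene. All 44 passed the filter on low counts in both experiments, and the lowest count of any of them in any library was 482, for NOP16.

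The data came from 5 groups of 3 libraries. In the first experiment HSSYII cells were treated for 6 hr with DMSO, the vehicle, or with 100 nM dBRD9A, a compound that directs the bromodomain protein BRD9 to degradation. In the second, cells were infected with a GFP tagged lentivirus at an MOI of 1 that carried a hairpin against Renilla luciferase (shRenilla, the control) or 1 of 2 hairpins against the fusion (shSS18-SSX1-1 and shSS18-SSX1-2), and were harvested 96 hr later. The methods describe no drug selection of the infected cells, and all 5 groups were made from the same line, in which the fusion is present. The comparisons ask how loss of BRD9 and loss of the fusion, which share a chromatin remodelling complex, alter transcript levels. No label tells whether the 3 libraries of a group are separate cultures, and the p-values then rest on a spread between libraries that may be technical only. The tables hold 0 spike-in rows, so every change is relative to the other genes and a shift shared by all transcripts cannot be seen. In bulk RNA, fewer cells of a kind and less RNA per cell cannot be told apart.

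Total counts per library were 18580419 to 27031647. Libraries of the drug experiment were closer to each other than those of the knockdown experiment, with a biological coefficient of variation of 2.78% against 8.91%. In the knockdown experiment shRenilla replicate 1 stood apart. Set against replicates 2 and 3 it gave a chi-square per degree of freedom of 36.5 and 27, where no other pair of that experiment exceeded 9.85, so knockdown values are given with and without it. SSX1 mRNA, which includes the SSX1 part of the fusion, was 55.2 to 77.0 CPM (counts scaled to library size) with shRenilla, 18.7 to 20.9 with shSS18-SSX1-1 and 27.8 to 29.2 with shSS18-SSX1-2. BRD9 mRNA was 85.2 to 90.8 CPM with DMSO and 89.1 to 95.4 with dBRD9A, which does not check the labels because the compound acts on the protein. The 6 markers of synovial sarcoma, SSX1 among them, summed to 598 to 619 CPM with shRenilla and to 479 to 532 CPM with the hairpins. On knockdown 3 of the 6 were lower, 2 of them past a fold of 1.5 (median -0.37). Summed over 10 markers of fibroblasts and smooth muscle, levels were 41.4 to 48.8 CPM with shRenilla and 1242 to 1540 CPM with the hairpins, carried by COL1A1, TAGLN and COL3A1, while COL1A2, DCN and LUM were at 0.394 CPM or less in these libraries. Markers of skeletal muscle (6 genes) summed to 2.999 to 3.66 CPM with shRenilla and 16.4 to 23.1 CPM with the hairpins, 7 of leukocytes to 3.19 to 5.55 and 5.80 to 6.97 CPM, and 5 of endothelium to 0 and 0.906 to 1.89 CPM, with PTPRC, CD3E, PECAM1, CDH5, KDR, MYOD1 and MYOG at or near 0. The part of these markers in the knockdown results was not tested.

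Ribosomes are built in the nucleolus. RNA polymerase I transcribes a long precursor RNA, box C/D particles methylate it and box H/ACA particles change uridines to pseudouridine, the small subunit processome folds and cuts the part that becomes the 40S subunit, and a separate set of factors matures the 60S subunit. Transcripts for these factors are abundant in growing cells, and many of their genes are known targets of the transcription factor MYC, which binds the E-box CACGTG with its partner MAX. In this account the members are ordered by those roles.

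Promoter sequence is shown first, because an E-box lay at the start site of many members. Of 39 members with a promoter in the RefSeq table (GRCh38.p14, from 250 bases before to 50 after each annotated start), 16 held CACGTG, which reads the same on both strands. That is 41.0%, against 10.2% of 10373 tested genes and 7.44% of all 27305 promoters of that length. The stretches of 60 bases below were chosen to show the box in 5 members that fell on knockdown (MRTO4, NAT10, UTP20, FBL, NOP10) and in 2 members that knockdown did not lower (PES1, RCL1). The E-box is in capitals.
MRTO4: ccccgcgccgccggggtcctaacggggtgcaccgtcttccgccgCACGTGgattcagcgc
NAT10: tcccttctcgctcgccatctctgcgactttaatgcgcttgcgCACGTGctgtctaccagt
UTP20: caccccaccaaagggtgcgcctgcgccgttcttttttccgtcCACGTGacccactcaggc
FBL: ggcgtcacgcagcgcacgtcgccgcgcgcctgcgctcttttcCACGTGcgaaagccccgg
NOP10: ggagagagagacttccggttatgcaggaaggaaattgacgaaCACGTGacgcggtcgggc
PES1: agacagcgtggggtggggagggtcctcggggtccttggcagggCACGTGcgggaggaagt
RCL1: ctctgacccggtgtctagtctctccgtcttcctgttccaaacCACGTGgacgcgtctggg

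These stretches lie at chr1:19251775-19251834 (plus strand) for MRTO4, chr11:34105572-34105631 (plus) for NAT10, chr12:101280053-101280112 (plus) for UTP20, chr19:39846356-39846415 (minus) for FBL, chr15:34343130-34343189 (minus) for NOP10, chr22:30591881-30591940 (minus) for PES1 and chr9:4792906-4792965 (plus) for RCL1. By role, the box was found in 8 of 13 promoters of small subunit factors (61.5%), 4 of 8 of large subunit factors and 2 of 3 of box C/D proteins, and in 0 of 5 of RNA polymerase I and its factors. By response, 12 of 30 members called lower on knockdown held it, and 4 of 9 not called. Of the other genes of the pathway 24.8% of 109 promoters held it, and of the cytosolic ribosomal proteins 4.76% of 63. An ETS motif, CCGGAAG on either strand, was in 12 of 39 members (30.8%, against 18.2% of tested genes), and TATAAA on either strand was in 1 (2.56%, against 5.57%). By their letters these 3 motifs cannot overlap each other. Median GC content was 63.7% in member promoters and 65.3% in those of tested genes. A match describes the letters and is not a measured binding site, and BOP1, NOLC1, NOP58, RRP12 and RRP1B were not in the table.

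**Figure D1:**
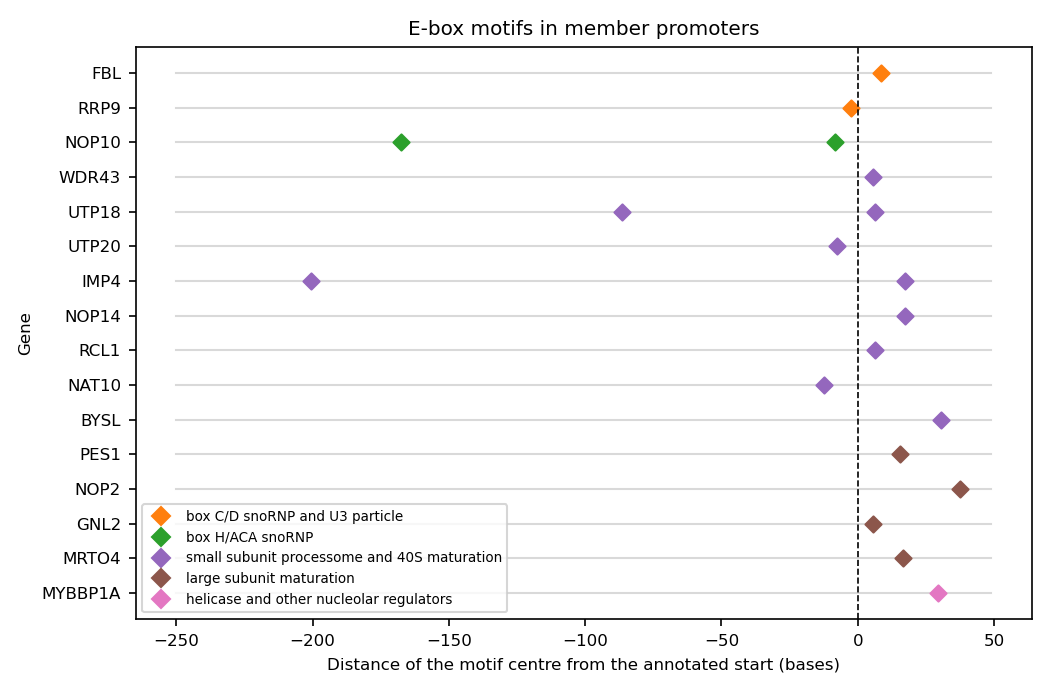
E-box positions in the 16 member promoters that hold one. Each diamond is the centre of a CACGTG by its distance in bases from the annotated start (dashed line), grey lines span the 250 bases before and 50 after, and colours give the role. Every gene shown has a box no more than 15 bases before the start or within the 50 after it, and NOP10, UTP18 and IMP4 have a second one farther upstream.

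After 6 hr of dBRD9A the ribosome biogenesis genes moved little and in both directions. UBTF, the protein that keeps ribosomal DNA open for RNA polymerase I, was the largest rise (0.29 on the log2 scale) and POLR1A, the catalytic subunit of that polymerase, the largest fall (-0.24). By edgeR's quasi-likelihood test, adjusted by Benjamini-Hochberg over all 13652 genes tested, 12 of the 44 members were higher, 5 were lower and 27 did not pass an adjusted p of 0.05. Of all genes tested 17.7% were higher and 18.2% lower. No member passed a fold of 1.5, whereas 2.23% of all genes were higher and 0.593% lower past it. At an unadjusted p under 0.05, 14 members were higher and 7 lower, DESeq2 called 10 and 5, and limma voom 13 and 5. The median log2 fold change was 0.020 over the members and 0.011 over all genes. All 3 dBRD9A libraries were above all DMSO libraries for 15 members (22.5% of all genes) and below them for 10 (23.3%). Summed over the 44 genes, levels were 9310 to 9486 CPM with DMSO and 9430 to 9629 CPM with dBRD9A, ranges that overlap. Of the 17 calls, 10 held in every alternative fitted within the drug experiment.

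**Figure D2:**
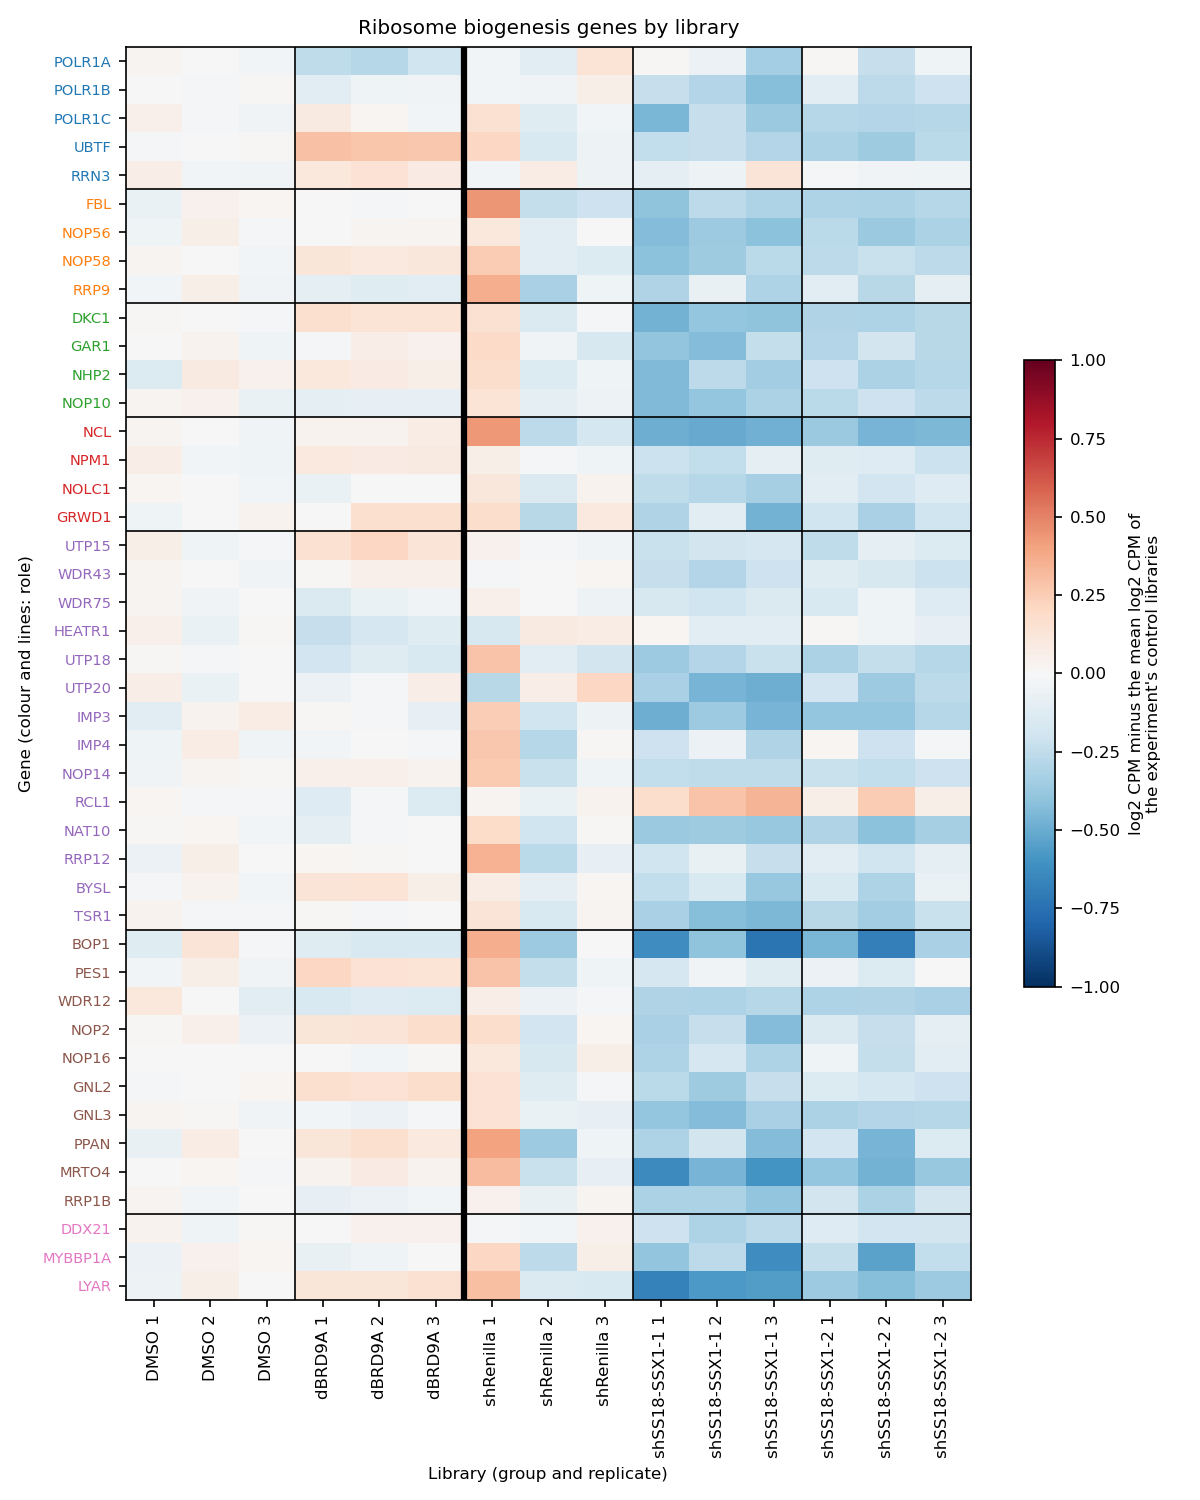
Level of each of the 44 genes (rows, coloured and ruled by role) in each of the 15 libraries (columns), as log2 CPM minus the mean log2 CPM of the control libraries of the same experiment (DMSO, or shRenilla). UBTF and POLR1A differ in all 3 dBRD9A libraries, the hairpin columns are blue for most genes, RCL1 is red in all 6 of them, and shRenilla replicate 1 is redder than replicates 2 and 3.

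In the RNA polymerase I group the drug gave opposite changes to the transcripts of the enzyme's catalytic subunit and of a factor that prepares its template. UBTF (chromosome 17, 42282401 to 42298994, minus strand, GRCh37) was at 354, 358 and 362 CPM in DMSO replicates 1 to 3 and at 439.8, 433 and 432 CPM with dBRD9A. The groups did not overlap (log2 fold change 0.29, SE 0.0275, adjusted p = 1.183e-09). POLR1A (chromosome 2, 86247339 to 86333278, minus strand) was at 175, 172 and 169 CPM with DMSO and at 144, 141 and 149 CPM with dBRD9A, again without overlap (log2 fold change -0.24, SE 0.0339, adjusted p = 1.541e-06). RRN3, which brings the polymerase to the promoter, rose by 0.12 (adjusted p = 0.02714), a call that did not hold without DMSO replicate 2 (adjusted p = 0.06734) or 3 (0.1665) and without dBRD9A replicate 1 (0.06578) or 2 (0.1645). The other polymerase subunits, POLR1B (-0.05, adjusted p = 0.2088) and POLR1C (0.04, adjusted p = 0.6233), were not called.

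Among the snoRNP proteins 1 of each class was higher with dBRD9A. NOP58 (chromosome 2, 203130459 to 203168384, plus strand), a scaffold of box C/D particles, was at 224, 219.6 and 215 CPM with DMSO and at 238, 235 and 238 CPM with dBRD9A. All treated libraries were above all controls (log2 fold change 0.12, SE 0.0305, adjusted p = 0.002828). FBL, the methyltransferase of the same particle, was at 0.01 and NOP56 at 0.02, and neither was called (adjusted p = 0.9157 and 0.6092). DKC1 (chromosome X, 153991017 to 154005964, plus strand), the pseudouridine synthase of box H/ACA particles, was at 346, 344 and 338 CPM with DMSO and at 383, 377 and 376 CPM with dBRD9A. It too did not overlap (log2 fold change 0.15, SE 0.0278, adjusted p = 7.504e-05). Its partners GAR1, NHP2 and NOP10 lay between -0.08 and 0.09 and were not called.

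Of the nucleolar chaperones, NPM1, or nucleophosmin, rose by 0.09 (adjusted p = 0.009674), a call lost without DMSO replicate 3 (adjusted p = 0.1315) or dBRD9A replicate 2 (0.05369). GRWD1 (chromosome 19, 48949098 to 48960279, plus strand), a chaperone of histones and of a ribosomal protein, was at 68.3, 70.5 and 72.1 CPM with DMSO and at 70.4, 78.5 and 78.5 CPM with dBRD9A. The groups overlapped, since dBRD9A replicate 1 lay within the DMSO range. Its log2 fold change was 0.12 (SE 0.0440, adjusted p = 0.04), and it was not called without DMSO replicate 1 (adjusted p = 0.115) or 3 (0.07628) and without dBRD9A replicate 2 (0.2215) or 3 (0.186). Nucleolin (NCL) was at 0.06 (adjusted p = 0.07712) and NOLC1, a snoRNP scaffold, at -0.01.

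The 14 small subunit factors gave 1 rise and 2 falls. UTP15 (chromosome 5, 72861268 to 72879205, plus strand) and HEATR1 (chromosome 1, 236712305 to 236767816, minus strand) both belong to the part of the processome that binds the precursor first, and they moved in opposite directions. UTP15 was at 41.4, 38.6 and 39.2 CPM with DMSO and at 44.2, 45.9 and 43.4 CPM with dBRD9A, with no overlap (log2 fold change 0.17, SE 0.0477, adjusted p = 0.005179), a call lost without dBRD9A replicate 2 (adjusted p = 0.05297). HEATR1 was at 608, 561 and 591 CPM with DMSO and at 498, 522 and 539 CPM with dBRD9A (log2 fold change -0.17, SE 0.0306, adjusted p = 6.594e-05). UTP18 (chromosome 17, 49337907 to 49375297, plus strand), of another processome module, was at 165, 162 and 164 CPM with DMSO and at 144, 149.9 and 147 CPM with dBRD9A (log2 fold change -0.15, SE 0.0332, adjusted p = 0.0007327). For HEATR1 and UTP18 every treated library was below every control. The other 11 members of the group lay between -0.08 and 0.12 and were not called.

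Of the large subunit factors 4 of 10 were higher and 2 lower, where 17.7% and 18.2% of all genes were. PES1, BOP1 and WDR12 form 1 complex that processes the precursor of 28S rRNA, and with dBRD9A its members did not move together. PES1 (chromosome 22, 30972612 to 31003070, minus strand) was at 121, 128 and 120.4 CPM with DMSO and at 143, 136 and 135 CPM with dBRD9A, without overlap (log2 fold change 0.17, SE 0.0365, adjusted p = 0.0004898). BOP1 (chromosome 8, 145486055 to 145515082, minus strand) was at 133, 158 and 143 CPM with DMSO and at 133, 130.1 and 129.8 CPM with dBRD9A. Its groups overlapped by DMSO replicate 1, and the fall (log2 fold change -0.14, SE 0.0442, adjusted p = 0.01522) was not called without DMSO replicate 2 (-0.07, adjusted p = 0.1053). WDR12 (chromosome 2, 203738984 to 203879521, minus strand) was at 114, 106 and 98.8 CPM with DMSO and at 95.3, 97.0 and 96.8 CPM with dBRD9A. Treated libraries lay below the controls by a small margin (log2 fold change -0.14, SE 0.0415, adjusted p = 0.01086), and it was not called without DMSO replicate 1 (adjusted p = 0.083) or dBRD9A replicate 1 (0.05437).

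GNL2 (chromosome 1, 38032417 to 38061538, minus strand), a GTPase of 60S maturation, was at 90.4, 91.2 and 92.8 CPM with DMSO and at 102, 101 and 103 CPM with dBRD9A. This was a clean separation (log2 fold change 0.17, SE 0.0368, adjusted p = 0.0005655). NOP2, a methyltransferase of 28S rRNA, rose by 0.15 (adjusted p = 0.001323). PPAN rose by 0.13 (adjusted p = 0.009899), a call lost without DMSO replicate 1 (adjusted p = 0.06255) or 3 (0.05469) or dBRD9A replicate 2 (0.0719), and its transcript overlaps the PPAN-P2RY11 readthrough on the same strand. In the last group, LYAR (chromosome 4, 4269428 to 4291881, minus strand), a nucleolar zinc finger protein, was at 100.2, 108 and 104 CPM with DMSO and at 113, 113 and 116 CPM with dBRD9A. All treated libraries were above the controls (log2 fold change 0.14, SE 0.0377, adjusted p = 0.004268), while DDX21, an RNA helicase, and MYBBP1A were not called.

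MYC itself fell with the compound, from 391, 417 and 407 CPM with DMSO to 304, 294 and 293 CPM (log2 fold change -0.44, SE 0.0303, adjusted p = 9.918e-13). The median was 0.020 over the members and 0.011 over all genes, and a part of MYC in the member values was not tested. Of the members with a promoter in the table, the E-box was in 3 of 11 called higher, 1 of 4 called lower and 12 of 24 not called with dBRD9A.

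**Figure D3:**
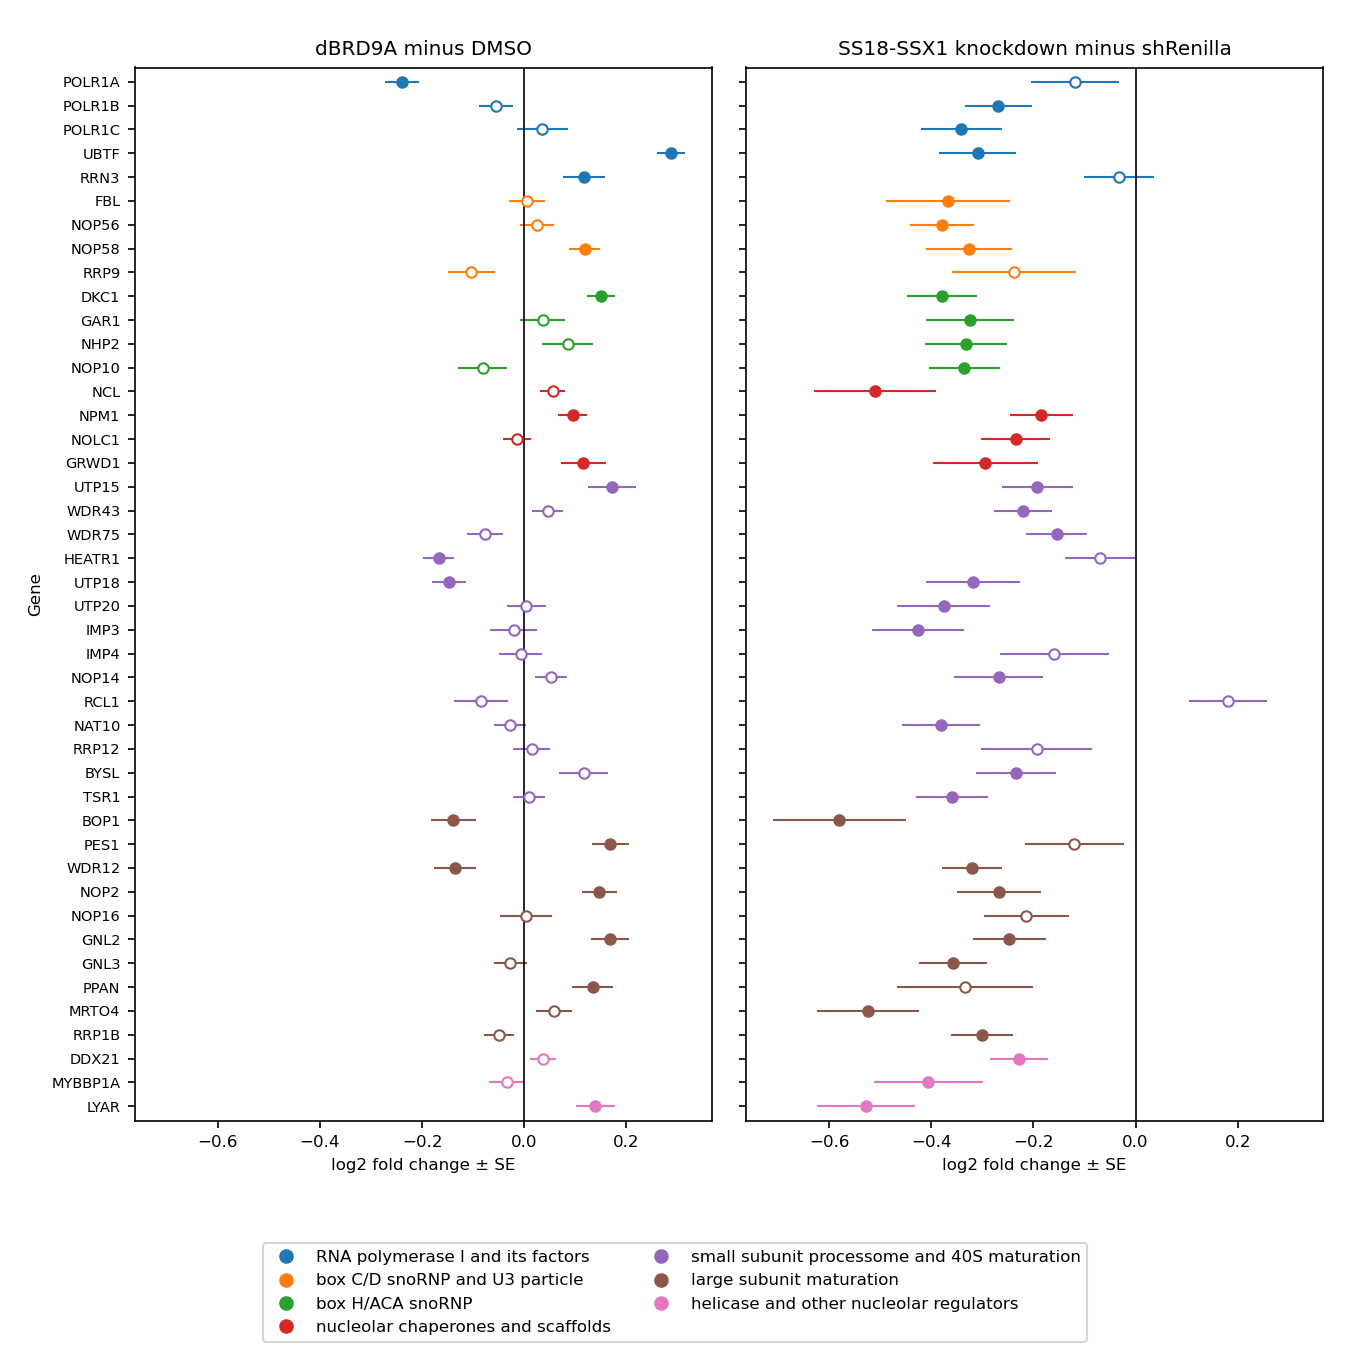
Log2 fold change (points, with the standard error as bars) of the 44 genes for dBRD9A minus DMSO (left, 3 against 3 libraries) and for the mean of both hairpins minus shRenilla (right, 6 against 3 libraries). Filled points have an adjusted p under 0.05 and colours give the role. On the left 12 filled points lie above 0 and 5 below it, and on the right all 34 lie below 0.

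Knockdown of SS18-SSX1 gave a broad and shallow fall. With both hairpins against shRenilla, 34 of the 44 members were lower, 0 were higher and 10 were not called by edgeR's quasi-likelihood test (Benjamini-Hochberg over 14269 genes), where 22.1% of all genes were lower and 22.5% higher. For the count of 0, an unadjusted p under 0.05 gave 1 higher, and DESeq2 and limma voom gave 0. By the same measures 36, 35 and 34 members were lower. None passed a fold of 1.5 in this contrast, past which 5.9% of all genes were lower and 12.5% higher. The median log2 fold change of the members was -0.30, against -0.014 over all genes, and 43 of 44 were negative. All 6 hairpin libraries were below all 3 shRenilla libraries for 25 members (17% of all genes) and above them for 1 (21.6%). Summed levels were 8344, 8901 and 10610 CPM with shRenilla, where the highest is replicate 1, 7262 to 7329 CPM with shSS18-SSX1-1 and 7478 to 7823 CPM with shSS18-SSX1-2, with no overlap between control and knockdown.

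The size of the fall rested in part on shRenilla replicate 1. Without it 24 members were lower and 1 was higher (18.9% and 23.6% of all genes in that fit), the median was -0.18 and 40 were negative. All 24 were among the 34. The hairpin libraries were then below both remaining controls for 27 members (22.3% of all genes) and above them for 1 (25.8%). Calls lost without that library were those of FBL, NPM1, GRWD1, UTP15, WDR75, UTP18, NOP14, BYSL, NOP2 and GNL2. Of these, UTP18 and GNL2 were lost without that library alone. UTP15 and WDR75 were lost whichever of the 9 libraries was left out. NPM1 was lost without any library but shRenilla replicate 3 and shSS18-SSX1-1 replicate 3, and NOP14 without any but shRenilla replicates 2 and 3 and shSS18-SSX1-2 replicate 3. GRWD1 and BYSL were both lost without shRenilla replicate 1 or 3, shSS18-SSX1-1 replicate 1 or 3, or shSS18-SSX1-2 replicate 1 or 2. FBL was also lost without the first replicate of either hairpin (adjusted p = 0.06249 and 0.05202), NOP2 without shRenilla replicate 3 (0.05965), and NOLC1 only without shRenilla replicate 3 (0.05199). The highest adjusted p among these losses was that of GRWD1 without shRenilla replicate 1, 0.1742.

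**Figure D4:**
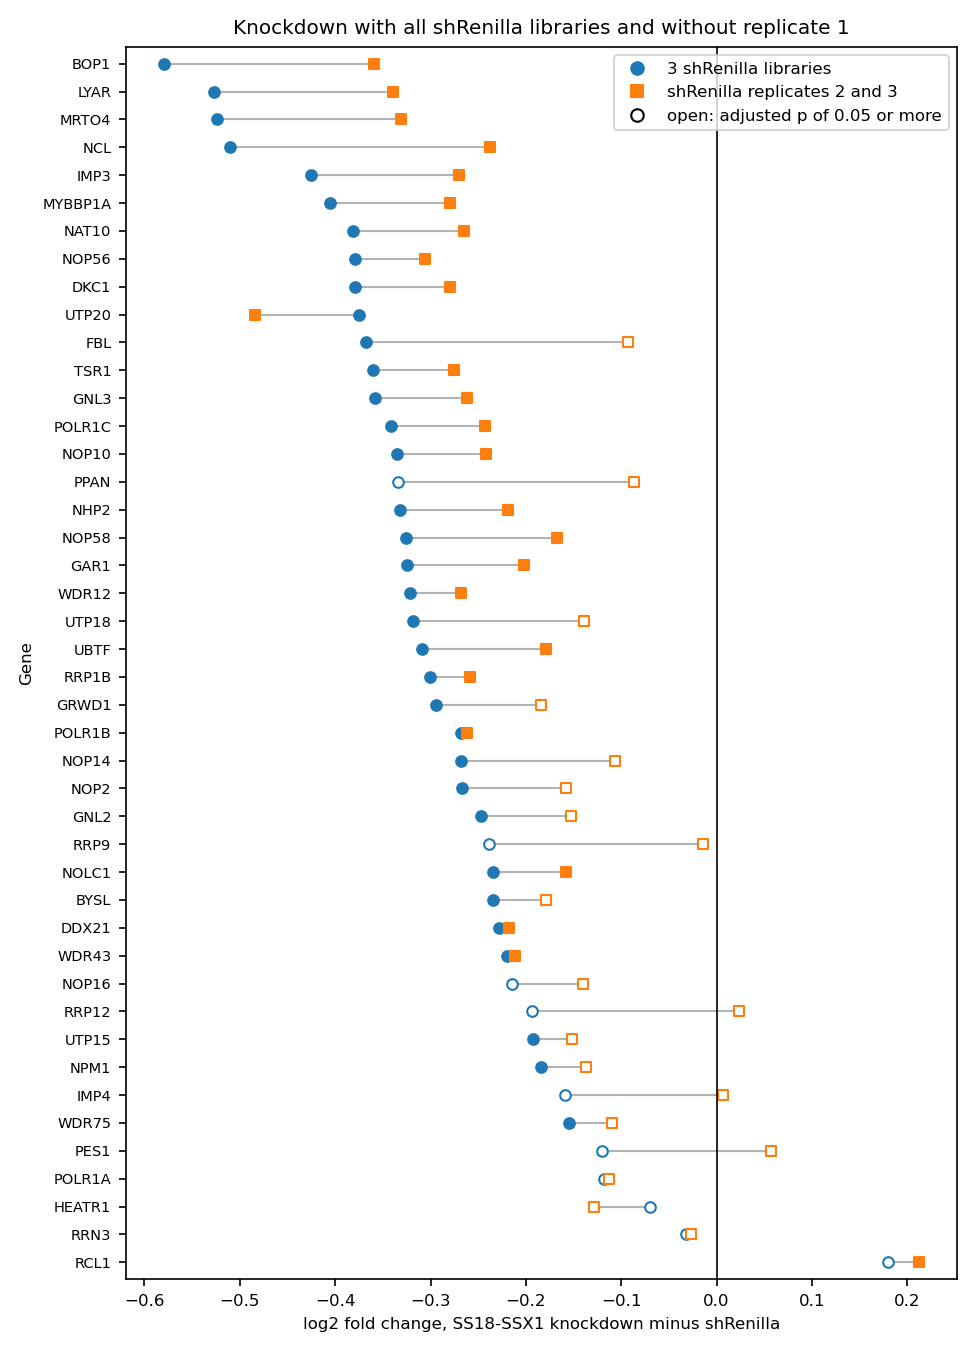
Log2 fold change of each gene for SS18-SSX1 knockdown minus shRenilla, with all 3 shRenilla libraries (circles) and with replicates 2 and 3 only (squares); open symbols have an adjusted p of 0.05 or more. Most squares lie nearer to 0 than their circles, UTP20 and HEATR1 lie farther below it, and the filled squares below 0 number 24.

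In the RNA polymerase I group 3 of 5 members fell (median -0.27). POLR1C (chromosome 6, 43477440 to 43530156, plus strand), a subunit shared with RNA polymerase III, was at 52.5, 43.5 and 46.3 CPM with shRenilla, at 34.5, 40.4 and 36.5 CPM with shSS18-SSX1-1 and at 38.7, 38.5 and 38.8 CPM with shSS18-SSX1-2. No hairpin library reached a control (log2 fold change -0.34, SE 0.0789, adjusted p = 0.003027), nor did any without shRenilla replicate 1 (-0.24, adjusted p = 0.01375). POLR1B fell by 0.27 (adjusted p = 0.004117) and UBTF by 0.31 (adjusted p = 0.004518), and without shRenilla replicate 1 these were -0.26 and -0.18, both still called (adjusted p = 0.005408 and 0.0125). POLR1A was at -0.12 (adjusted p = 0.2894) and RRN3 at -0.03 (adjusted p = 0.735).

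All 4 box H/ACA proteins and 3 of 4 box C/D proteins were lower (medians -0.33 and -0.35). NOP56 (chromosome 20, 2633239 to 2639039, plus strand), which hosts 3 snoRNA genes in its introns, was at 206, 178 and 191 CPM with shRenilla, at 142, 149 and 144 CPM with shSS18-SSX1-1 and at 159, 148 and 154 CPM with shSS18-SSX1-2. The control and hairpin libraries did not overlap (log2 fold change -0.38, SE 0.0630, adjusted p = 0.0002285; without shRenilla replicate 1, -0.31, adjusted p = 0.0003993). DKC1 was at 361, 294 and 322 CPM with shRenilla, at 234, 248 and 245 CPM with the first hairpin and at 264, 262 and 268 CPM with the second, also without overlap (log2 fold change -0.38, SE 0.0684, adjusted p = 0.0004737; without that library -0.28, adjusted p = 0.0006642). NOP58, NHP2 and GAR1 remained called without shRenilla replicate 1 but at a smaller size, -0.17 for -0.33, -0.22 for -0.33 and -0.20 for -0.32. FBL, at 324, 203 and 208 CPM with shRenilla and 181 to 199 CPM with the hairpins, went from -0.37 (adjusted p = 0.02393) to -0.09 (adjusted p = 0.1713). RRP9, the protein specific to the U3 particle, was not called (-0.24, adjusted p = 0.13).

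The size of the fall of nucleolin depended on shRenilla replicate 1. NCL (chromosome 2, 232318242 to 232348352, minus strand) was at 2938, 1815 and 1919 CPM with shRenilla, at 1551, 1535 and 1560 CPM with shSS18-SSX1-1 and at 1675, 1574 and 1587 CPM with shSS18-SSX1-2. Every hairpin library was below every control, and the fall was 0.51 on the log2 scale with all controls (SE 0.120, adjusted p = 0.003363) and 0.24 without shRenilla replicate 1 (adjusted p = 0.001155). The other chaperones, NPM1 (-0.18), NOLC1 (-0.23) and GRWD1 (-0.29), were called lower with all libraries, and of these NOLC1 kept its call without that replicate (-0.16, adjusted p = 0.03873).

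Small subunit factors were lower in 10 of 14 cases (median -0.23), and without shRenilla replicate 1 in 5, with 1 higher. IMP3 (chromosome 15, 75931426 to 75941047, minus strand), which helps the U3 snoRNA to pair with the precursor, was at 79.9, 58.6 and 65.0 CPM with shRenilla, at 47.8, 52.4 and 48.8 CPM with the first hairpin and at 51.4, 51.4 and 55.3 CPM with the second. These did not overlap (log2 fold change -0.43, SE 0.0901, adjusted p = 0.001626; without shRenilla replicate 1, -0.27, adjusted p = 0.005554). The other 4 that remained lower without it were UTP20 (-0.48), TSR1 (-0.28), NAT10 (-0.26), the acetyltransferase of 18S rRNA, and WDR43 (-0.21). UTP20 was the called member whose fall grew, from -0.38, since shRenilla replicate 1 was its lowest control. HEATR1, IMP4 and RRP12 were not called in either fit.

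RCL1 was the exception among the members. It was at 34.5, 32.4 and 34.7 CPM with shRenilla, at 38.1, 41.2 and 42.7 CPM with shSS18-SSX1-1 and at 35.3, 40.3 and 35.2 CPM with shSS18-SSX1-2, so that every hairpin library was above every control. Its log2 fold change over both hairpins was 0.18 (SE 0.0764, adjusted p = 0.0704), and it was called without shRenilla replicate 1 (0.21, adjusted p = 0.04325) and for shSS18-SSX1-1 alone (0.26, adjusted p = 0.02833), the latter lost without replicate 2 or 3 of that hairpin (adjusted p = 0.05719 and 0.08273). RCL1 resembles RNA cyclases and takes part in making the small subunit.

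Of the large subunit factors 7 of 10 were lower (median -0.31), among them BOP1, whose fall was the largest of the members with all libraries. BOP1 was at 121, 73.5 and 94.6 CPM with shRenilla, at 61.3, 71.6 and 56.8 CPM with the first hairpin and at 68.7, 58.7 and 75.4 CPM with the second, and shSS18-SSX1-2 replicate 3 reached above the lowest control. Its log2 fold change was -0.58 (SE 0.131, adjusted p = 0.00257), and -0.36 without shRenilla replicate 1 (adjusted p = 0.01836). MRTO4 (chromosome 1, 19578299 to 19586622, plus strand), which holds the place of a stalk protein on the early 60S subunit, was at 153, 105 and 116 CPM with shRenilla, at 79.0, 89.3 and 81.4 CPM with the first hairpin and at 94.1, 88.5 and 94.7 CPM with the second, without overlap (log2 fold change -0.52, SE 0.0994, adjusted p = 0.0007008; without shRenilla replicate 1, -0.33, adjusted p = 0.0009434). Of the partners of BOP1, WDR12 was lower in both fits (-0.32 and -0.27), and PES1 was called in neither (-0.12 and 0.06). GNL3, or nucleostemin, and RRP1B were lower in both fits, while PPAN (adjusted p = 0.05583) and NOP16 (adjusted p = 0.05076) missed the threshold.

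The 3 nucleolar regulators were lower with and without shRenilla replicate 1. LYAR was at 86.2, 63.2 and 62.9 CPM with shRenilla, at 43.8, 47.1 and 47.4 CPM with shSS18-SSX1-1 and at 54.3, 52.2 and 54.4 CPM with shSS18-SSX1-2. No hairpin library reached a control (log2 fold change -0.53, SE 0.0959, adjusted p = 0.0005018; without that replicate -0.34, adjusted p = 0.0005063). MYBBP1A was at -0.41 and -0.28 in the 2 fits and DDX21 at -0.23 and -0.22.

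Each hairpin alone gave negative values for most members, and both share the shRenilla libraries. With shSS18-SSX1-1, 30 members were lower and 1 higher (19.5% and 22% of all genes), with a median of -0.32, and BOP1, MRTO4 and LYAR passed a fold of 1.5 (6.95% of all genes were lower past it). With this hairpin 0 members passed that fold without shRenilla replicate 1, and these 3 were at -0.40, -0.40 and -0.44. With shSS18-SSX1-2, 24 were lower and 0 higher (15.9% and 18.3%), with a median of -0.28. An unadjusted p under 0.05, DESeq2 and limma voom also gave 0 higher. Without shRenilla replicate 1 the counts of lower members were 24 and 18 (18% and 14.7% of all genes). The count for shSS18-SSX1-2 changed with its own libraries, being 12, 8 and 15 without its replicates 1, 2 and 3, where the share of all genes called lower also dropped, to 9.94%, 8.97% and 11.5%. SSX1 was at -1.67 with the first hairpin and at -1.18 with the second. The second hairpin minus the first had a median of 0.059 over the members and -0.0068 over all genes. A relation of the member values to the SSX1 level was not tested. None of the 44 differed between the hairpins by edgeR's test, where 0.147% of all genes did, and an unadjusted p under 0.05, DESeq2 and limma voom gave 0 as well.

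The difference between the responses to dBRD9A and to knockdown was tested in 1 fit of all 15 libraries. It was positive, meaning a higher value with dBRD9A, for 27 members and negative for RCL1 (17.5% and 19% of all 14560 genes tested), with a median of 0.33 over the members and -0.0031 over all genes. LYAR had the largest difference (0.64, SE 0.118, adjusted p = 0.0003087) and alone passed a fold of 1.5 (6.81% of all genes, higher). Without shRenilla replicate 1 it was positive for 24 and negative for 1 (17.9% and 20.1% of all genes), with a median of 0.23, LYAR was at 0.48 and 0 members passed the fold. RCL1 differed by -0.29 (adjusted p = 0.023), a call lost without DMSO replicate 1 (adjusted p = 0.0524) or dBRD9A replicate 1 (0.06197) or 3 (0.06203). Of the 28 calls 19 held in every alternative, and NOP10, GRWD1, UTP20, IMP3, NOP14, PPAN, RCL1 and RRP1B each lost theirs without at least 1 library. The experiments differ in agent, time, virus and control, and these cannot be told apart.

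Set side by side, 9 members were called higher with dBRD9A and lower with knockdown: UBTF, NOP58, DKC1, NPM1, GRWD1, UTP15, NOP2, GNL2 and LYAR. These were 9 of the 12 called higher with the drug (75%), and 34 of all 44 members (77.3%) were lower on knockdown, so nothing is read from their number. Over the 13390 genes tested in both experiments, 26.6% of those higher with the drug were lower on knockdown, as were 23.3% of all. Only UBTF, NOP58, DKC1 and LYAR, 4 of the 9, kept the knockdown call without shRenilla replicate 1. Lower in both were 3 (UTP18, BOP1 and WDR12), with 3 higher with the drug and not called on knockdown, 2 lower with the drug and not called on knockdown (POLR1A and HEATR1), 22 lower on knockdown alone, and 5 called in neither. MYC was at 0.07 on knockdown (adjusted p = 0.6576), with shRenilla libraries at 211, 274 and 332 CPM and hairpin libraries at 262 to 314 CPM, and its drug and knockdown effects differed by -0.53 (adjusted p = 0.007263).

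The control groups had unlike levels of these genes, given here as levels with no test because time, virus and experiment differ together. From DMSO to shRenilla the median difference in the log2 of the group mean CPM was -0.11 over the members and 0.0086 over all genes, with 16 positive and 28 negative. It ran from -0.86 for HEATR1, at 561 to 608 CPM with DMSO and 287 to 341 CPM with shRenilla, to 1.02 for NOP10, at 41.8 to 45.3 and 83.5 to 97.6 CPM. The shRenilla libraries were all above the DMSO libraries for POLR1C, FBL, NOP10, NCL, BYSL and WDR12 (28.6% of all genes) and all below for 19 members (27.8%). For HEATR1 and NOP10 the step between the controls was larger than any response of a member within either experiment.

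The wider pathway was followed through 142 further genes on fixed lists, all of them tested. With dBRD9A 30 were higher and 23 lower (median 0.03), where 17.7% and 18.2% of all genes were. On knockdown 61 were lower and 3 higher (median -0.18), with 3 lower past a fold of 1.5. Of all genes 22.1% were lower, 22.5% higher and 5.9% lower past that fold. Without shRenilla replicate 1 the counts were 46 and 6 (median -0.11), against 18.9% and 23.6% of all genes. Of 11 other RNA polymerase I subunits and factors 5 were lower and 1 higher on knockdown, led by TCOF1 (-0.57), the treacle protein that works with UBTF, and 2 were lower and 2 higher with dBRD9A (TCOF1 -0.25, POLR1D -0.22, TTF1 0.24). Of 19 RNA polymerase III genes, whose products make 5S rRNA and tRNA, 9 were lower on knockdown (POLR3K -0.53, POLR3G -0.47, POLR3B -0.45) and with the drug 6 were higher (BRF2 0.38, POLR3F 0.38, POLR3B 0.22) and 4 lower. Of 43 other small subunit factors 18 were lower on knockdown, and 12 were higher and 8 lower with the drug. EMG1, a methyltransferase of 18S rRNA, was at -0.56 and 0.29. Of 55 other large subunit factors 23 were lower and 2 higher on knockdown (DDX55 -0.51, NOL9 -0.49), and 9 were higher and 8 lower with the drug (MDN1 -0.34, URB1 -0.29). Of 14 genes of the RNA exosome, which trims and degrades precursor RNA, 6 were lower on knockdown, and MPHOSPH6 (-0.69), EXOSC9 (-0.62) and EXOSC2 (-0.61) were the 3 past a fold of 1.5. Without shRenilla replicate 1 only 1 of them passed it.

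Transcripts of the ribosome's own proteins were higher on knockdown in 25 of 78 tested genes and lower in 1 (median 0.16), where 22.5% of all genes were higher, led by RPLP1 (0.36), RPL23 (0.33) and RPL10 (0.33), and without shRenilla replicate 1, 51 were higher and 1 lower (median 0.24). The first hairpin alone gave 29 higher and the second 10, where 22% and 18.3% of all genes were higher. With dBRD9A 27 were higher (median 0.06), where 17.7% of all genes were, led by RPS29 (0.16). Their summed level was 40720 to 42630 CPM with DMSO, 42050 to 44010 with dBRD9A, 62030 to 73080 with shRenilla, 73530 to 83170 with shSS18-SSX1-1 and 71450 to 77810 with shSS18-SSX1-2, so the step between the controls exceeded either response.

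Other lists moved with the knockdown. All 20 proliferation genes were lower, 18 past a fold of 1.5 (median -0.69; RRM2 -0.87, MKI67 -0.87, TOP2A -0.87), and without shRenilla replicate 1, 19 were lower and 16 past the fold. Their summed level was 6870 to 6982 CPM with shRenilla and 3701 to 4796 CPM with the hairpins. Of all genes 22.1% were lower on knockdown, and 5.9% past that fold. Of the proliferation genes 10 were higher with dBRD9A and 3 lower (CCNE2 0.37, MCM5 0.22, BUB1 -0.23), where 17.7% and 18.2% of all genes were. All 12 interferon response genes were higher on knockdown (median 2.69), where 22.5% of all genes were higher, and 12.5% past a fold of 1.5. In sum these 12 genes were at 98.3 to 111 CPM with shRenilla and at 296 to 568 CPM with the hairpins. Their part in the fall of the ribosome biogenesis genes was not tested.

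**Figure D5:**
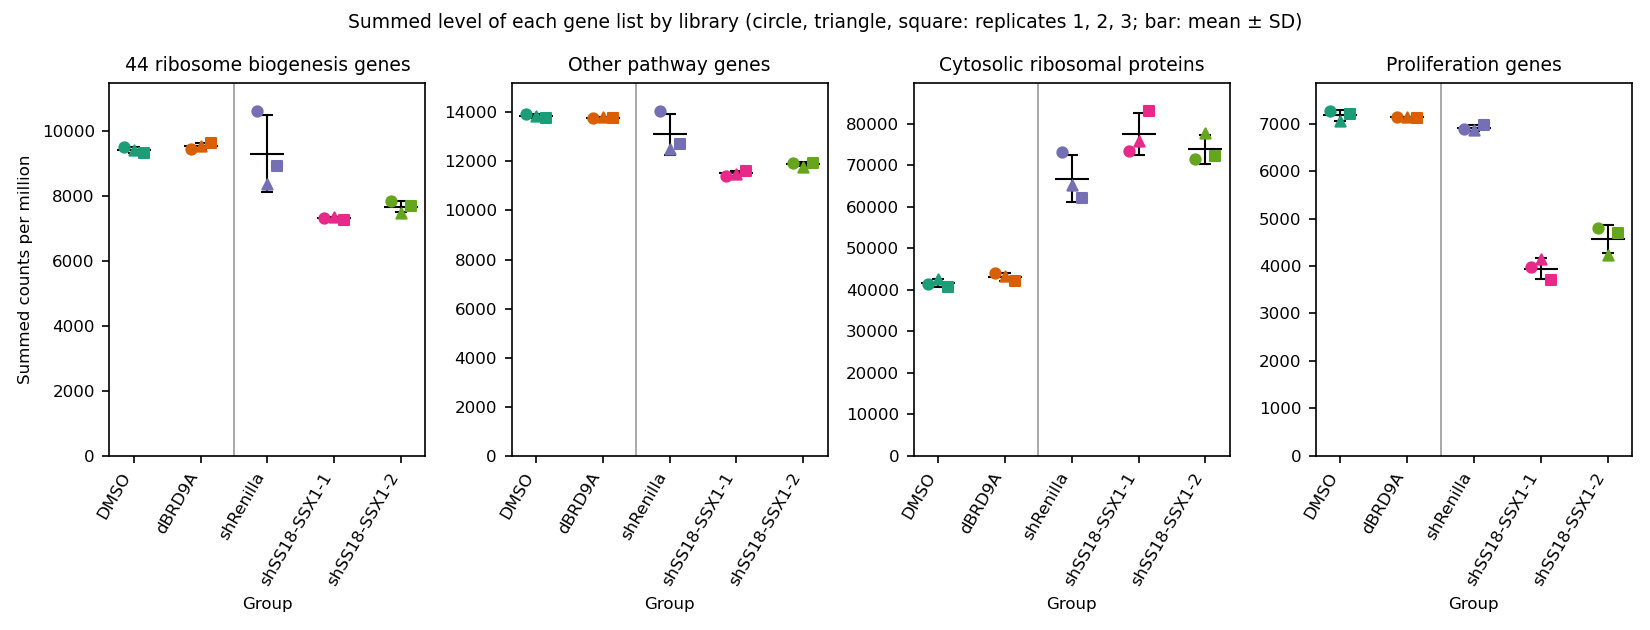
Summed CPM in each of the 15 libraries (circle, triangle and square for replicates 1, 2 and 3, with bars for mean ± SD, n = 3) of the 44 genes, the 142 other pathway genes, the cytosolic ribosomal proteins and the proliferation genes. The 44 genes lie at 7262 to 7823 CPM in the hairpin libraries and at 8344 to 10610 CPM with shRenilla, ribosomal proteins are higher in the knockdown experiment than in the drug experiment, and proliferation genes are lowest in the hairpin libraries.

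Overlapping annotation limits some members. GRWD1, NOP2, HEATR1 and PPAN share sequence with another gene on their own strand, and NHP2, TSR1, NOP14, NOP16, MYBBP1A, HEATR1, POLR1C, NOP58, IMP3 and RRP12 with a gene on the opposite strand, whose reads cannot be told apart because the strand setting of the counting is not given. NOP56, NOP58, NCL, WDR43, GNL3, DKC1, TSR1, PPAN and POLR1C hold small nucleolar or Cajal body RNA genes inside their bounds.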

How the data were processed

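RNA-seq libraries were grouped by their labels. Reads were aligned by the authors to hg19 (GRCh37) with STAR and assigned with featureCounts, per the submitters' processing notes and the methods (versions and strand not given in the sources used here). The labels name NEBNext Ultra II and the methods NEBNext Ultra. The deposited tables hold raw counts for 48104 transcript rows. In the deposited table of dBRD9A replicate 2, whose unit was set to other, 4535 rows have a broken symbol and their last word was taken as the value. Date-like symbols (80 rows) were restored except 2.

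Genes were kept by filterByExpr (minimum count 10) within each experiment, scaled by TMM and fitted with edgeR 4.0.16 (R 4.3.3, robust quasi-likelihood), with Benjamini-Hochberg adjustment over all tested genes and a threshold of 0.05. The SE is the log2 fold change over the square root of F. CPM levels use TMM over all 15 libraries. DESeq2 1.42.0, limma 3.58.1, other scalings, no filter, summed rows, a replicate block, and fits without 1 library each were the alternatives. The test was also run on counts simulated with the spread fitted to these libraries. That run cannot show the effect of an outlying control or of replicates that are technical only.

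Members and lists were chosen with earlier results of these data known. Values in every library are given for the 5 largest rises and falls among called members of each experiment and the largest change in each role, and from other lists for up to 3 called genes averaging 5 CPM or more. Values per library for other members, and the ETS and TATA motifs, were chosen after the values or files were seen. Gene bounds are from GENCODE mapped to GRCh37. Columns other than counts, and the authors' fold changes, were not used. The value of 1 marker gene is not reported here.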

Additional observations from a re-analysis of the deposited data

Results flagged for a closer look

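Of the 44 members, 9 were called higher with dBRD9A and lower with SS18-SSX1 knockdown. Of all 44 members 34 were lower on knockdown (77.3%), against 75% of the 12 higher with dBRD9A, so nothing is read from the number of 9. Without shRenilla replicate 1, 5 of the 9 lost the knockdown call and UBTF, NOP58, DKC1 and LYAR kept it. The difference between the effects was tested in the fit of all 15 libraries, in which the drug effect alone was called for UBTF and no longer for the other 8. That fit called 5.06% of all genes higher with the drug. The 9 members were picked because their calls go opposite ways, so the difference is large by that choice. The drug effect minus the knockdown effect, on the log2 scale, was 0.64 for LYAR, 0.57 for UBTF, 0.51 for DKC1, 0.42 for NOP58, 0.39 for NOP2, 0.39 for GNL2, 0.39 for GRWD1, 0.34 for UTP15 and 0.26 for NPM1, each with an adjusted p under 0.05 by edgeR's quasi-likelihood test. Without shRenilla replicate 1 the values were 0.48 for LYAR, 0.46 for UBTF, 0.43 for DKC1 and 0.28 for NOP58, and GRWD1 was no longer called (0.30, adjusted p = 0.07044). GRWD1 was also lost without DMSO replicate 1 or 2, dBRD9A replicate 2 or 3, or shRenilla replicate 3. Agent, time, virus and control differ together between the experiments and cannot be told apart.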

How the results depend on the processing

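Of 34 results under 556 alternatives, 511 were scored as the same, 24 single-gene values lost the call, 21 counts or medians moved and 0 reversed. Of the 511, 315 were single-gene values that kept their direction and side of the threshold. A count was scored as the same within a ratio of 1.5, and a median within the spread between libraries. By that score the knockdown count of 34 is the same at 24, although calls were lost. With dBRD9A, members higher numbered 12 (7 to 13 leaving out each library) and members lower 5 (4 to 6). In the fits that left out a library, 12.4% to 17.8% of all genes were higher and 13.8% to 19.3% lower. One fit of all 15 libraries, with its wider spread, called 1 (UBTF) and 0, and 4 and 3 at an unadjusted p under 0.05. Its calls with dBRD9A over all genes also dropped, to 5.06% higher and 5.24% lower. The member median of 0.020 was 0.038 under upper quartile scaling, where all genes were at 0.030, and 0.0046 to 0.029 leaving out each library. On knockdown, members lower numbered 34 (24 to 36 leaving out each library) and members higher 0 (0 to 1), with 1 higher, RCL1, under upper quartile scaling and in 1 fit of all libraries. Leaving out each library, 17.2% to 21.7% of all genes were lower and 21.2% to 24.6% higher. The knockdown median ran from -0.35 to -0.18. With shSS18-SSX1-1 the count higher was 1 (0 to 1), and with shSS18-SSX1-2 the count lower was 24 (8 to 28). Leaving out each library, the shares of all genes were 19% to 24.5% and 8.97% to 16.9%. A fold above 1.5 left 0 members higher and 0 lower with dBRD9A, 0 lower on knockdown, 0 higher and 3 lower with shSS18-SSX1-1, 0 lower with shSS18-SSX1-2, and 1 differing between the experiments. Deviations of same-numbered libraries had correlations of mixed sign (r -0.03 to 0.02 in the drug experiment and -0.30 to 0.25 in the knockdown experiment). A pair of unlike number reached 0.371 in the knockdown experiment. These values cannot tell whether same-numbered libraries were prepared together. With a replicate block, dBRD9A gave 12 higher and 5 lower, knockdown 29 lower, shSS18-SSX1-1 0 higher, and the difference between experiments 20. Over all genes the block moved calls from 4906 to 4794 with the drug and from 6368 to 5650 on knockdown. The spread of 3 libraries a group limits changes of this size.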
